A study of Mus musculus with 2 samples.

Results

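The collagen and laminin chains of mouse embryonic stem cells (mESCs) lacking functional Dicer (Dicer_KO) were examined in 2 RNA sequencing libraries. Members were taken by name, as the autosomal protein-coding genes whose symbol is Col, a number, a and a number, or Lama, Lamb or Lamc and a number. This gave 53 genes, 42 collagen chains and 11 laminin chains, of 43629 genes listed in the count files and of 20337 autosomal protein-coding genes among them. The study deleted exons of Dicer1 from E14TG2a mESCs, a line of 129/Ola background, with pairs of CRISPR/Cas9 guides, and derived its knockout lines from individually sorted cells, so each line is a clone. Cells were kept in serum with the cytokine LIF, which holds mESCs in the pluripotent state. Both libraries carry the same labels, Dicer knockout and polyA RNA, and differ in passage number, 7 for replicate 1 and 4 for replicate 2. The labels do not say which of the study's 2 deletions a library carries. Deletion, clone and passage therefore cannot be told apart in any difference between the libraries. The WT cells of the study were not analysed here, and no value below speaks of an effect of losing Dicer.

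Collagens are secreted or membrane-bound proteins whose chains wind around each other in trimers. Fibrillar collagens form the rope-like fibrils of connective tissue, type IV collagens form the sheet-like network of basement membranes, and other classes decorate fibrils or span the plasma membrane. Laminins are cross-shaped trimers of an α, a β and a γ chain that polymerize on cell surfaces and bind integrins and dystroglycan there. They start the assembly of basement membranes. In the early mouse embryo laminins and type IV collagen are made before implantation, and mESCs are commonly grown on laminin or gelatin.

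The libraries held 41710122 and 41566184 counts on genes, with at least 10 counts for 17819 and 17461 genes. A gene at 0 counts may have had up to 0.0719 CPM (counts per M counts of the library) in replicate 1 and 0.0722 CPM in replicate 2, the level of 3 counts. Dicer1, the targeted gene, had 1343 counts (32.2 CPM) in replicate 1 and 1510 counts (36.3 CPM) in replicate 2, and counts summed over the whole gene do not show a deletion of some of its exons. The listed markers of pluripotent cells had 10 counts or more in both libraries (9 of 9) and summed to 9588 and 6130 CPM. Pou5f1 had 39069 and 43025 counts, Nanog 47522 and 26215, and Dppa5a, at 199860 and 84835, was at least 2-fold higher in replicate 1. Levels were compared between genes as RPKM (reads per kilobase of annotated exon and M counts), and between libraries as log2 ratios of replicate 1 over replicate 2 after TMM scaling and addition of 1 count. A ratio has 1 library on each side, so no test was possible, and each is given with a 95% exact binomial interval on the pair of counts, without the added count, that covers counting error only.

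In the Dicer_KO mESCs a few chains carried most of the collagen and laminin RNA, with Col18a1, Lamc1 and Lama5 the highest. All 11 laminin chains and 30 of the 42 collagen chains had a mean of at least 10 counts. Laminin chains summed to 1329.8 CPM in replicate 1 and 1339 CPM in replicate 2, a mean of 1334 ± 6.27 (SD, n = 2). Collagen chains summed to 937 and 715 CPM, a mean of 826 ± 157, of which Col18a1 made up most. At least 10 counts in both libraries were found for 36 of the 53 members (67.9%), against 66.3% of all autosomal protein-coding genes. The share was 10 of 11 for laminins (90.9%) and 26 of 42 for collagens (61.9%). Across the 53 members the levels ranked alike in the 2 libraries (Spearman's rho = 0.94, over genes that share the same 2 libraries).

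**Figure D1:**
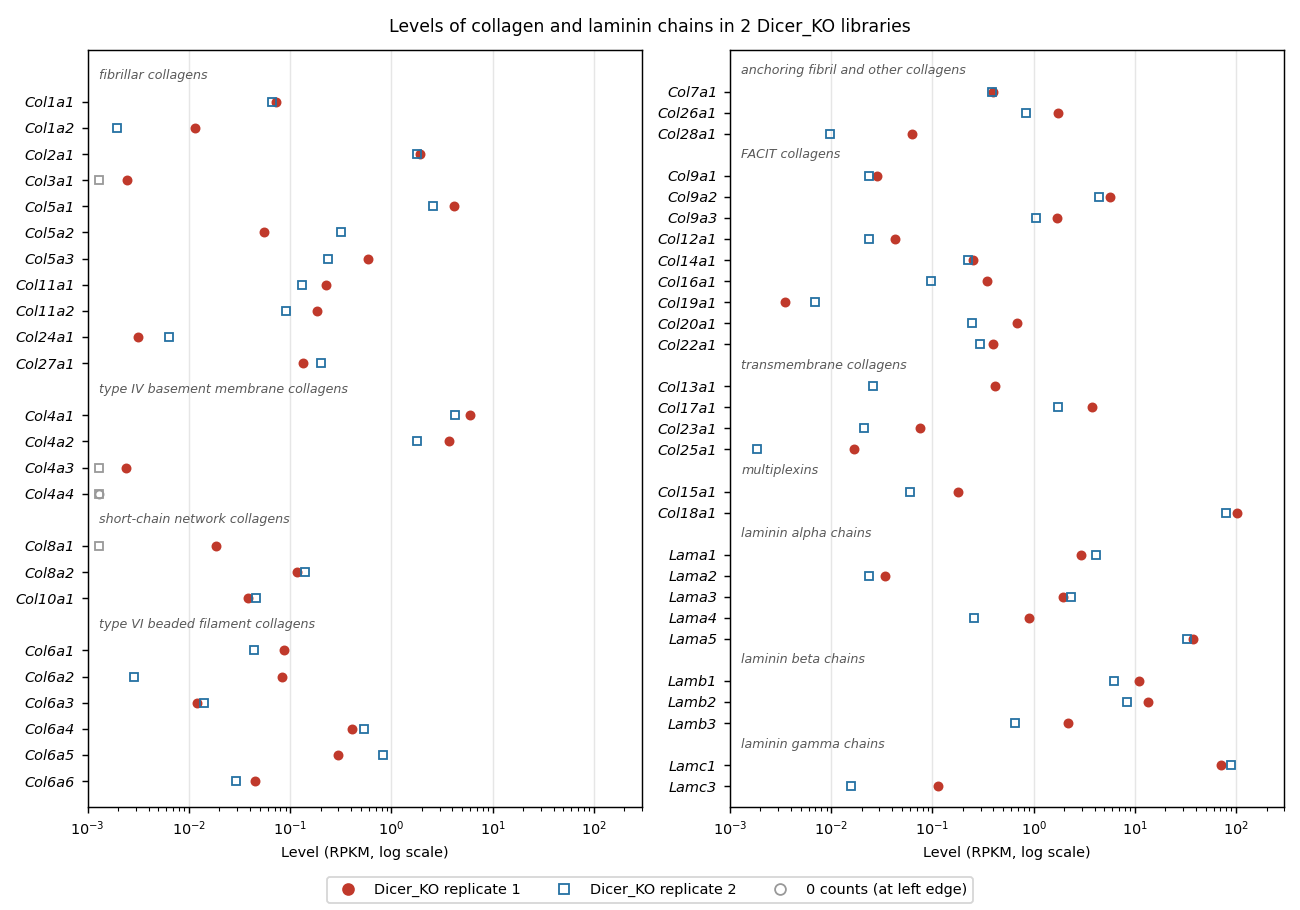
Level of the collagen and laminin chains reported by name, in RPKM on a log scale, by class, with replicate 1 as filled circles, replicate 2 as open squares and grey symbols at the left edge for 0 counts. Col18a1, Lamc1 and Lama5 lie above 30 RPKM in both libraries, while Col1a1, Col1a2 and Col3a1 lie below 0.1 RPKM.

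Col18a1 had the highest level per length of the 53 chains in replicate 1. It encodes the core protein of a basement membrane proteoglycan of the multiplexin class, whose C-terminal fragment is endostatin, and lies on chr10:77052178-77166548 (GRCm38, minus strand). It had 29797 counts in replicate 1 (714 CPM, 95% Wilson interval 706 to 723) and 23402 in replicate 2 (563 CPM, 556 to 570.3). Per exon length this was 102 and 80.2 RPKM, above 98.8% and 98.1% of autosomal protein-coding genes. Col18a1 held 75.0% of the summed RPKM of all collagen chains in replicate 1 and 78.0% in replicate 2. The libraries differed by a log2 ratio of 0.23 (0.20 to 0.25), higher in replicate 1. The gene has several transcription start sites, and RefSeq places 2 of them 52825 bases apart, so the gene count sums products of both. Their promoter windows, 250 bases before to 50 bases after the start, are shown because they differ in letters, with matches to 3 motifs in capitals. The motifs were the GC box (GGGCGG, which reads CCGCCC on the opposite strand), the CCAAT box (CCAAT, which reads ATTGG on the opposite strand) and the TATA box (TATAAA, which reads TTTATA on the opposite strand). The upstream window (chr10:77166481-77166780, minus strand, GRCm38.p6) holds 3 GC boxes and 1 CCAAT box, and the downstream window (chr10:77113656-77113955) holds no match.
Col18a1 upstream start: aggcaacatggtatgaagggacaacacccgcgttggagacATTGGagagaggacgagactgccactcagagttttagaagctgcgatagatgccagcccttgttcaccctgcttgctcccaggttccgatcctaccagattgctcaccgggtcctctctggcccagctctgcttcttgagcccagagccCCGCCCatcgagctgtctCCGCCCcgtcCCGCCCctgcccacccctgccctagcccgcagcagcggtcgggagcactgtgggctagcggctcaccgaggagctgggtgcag
Col18a1 downstream start: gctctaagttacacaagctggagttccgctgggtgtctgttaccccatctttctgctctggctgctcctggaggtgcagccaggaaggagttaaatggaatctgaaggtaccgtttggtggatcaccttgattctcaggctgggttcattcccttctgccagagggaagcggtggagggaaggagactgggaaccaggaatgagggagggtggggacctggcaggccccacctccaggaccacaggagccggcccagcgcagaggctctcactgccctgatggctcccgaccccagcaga
A match is a string of letters and was not tested for binding. The other multiplexin, Col15a1, which encodes a basement membrane collagen of muscle and vessels, had 47 counts in replicate 1 and 16 in replicate 2, a log2 ratio of 1.38 (0.59 to 2.35).

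The type IV chains of the basement membrane network were present as the Col4a1 and Col4a2 pair, which assemble together in nearly every basement membrane. Col4a1 had 1861 and 1312 counts (5.98 and 4.23 RPKM) in replicates 1 and 2, a log2 ratio of 0.38 (0.28 to 0.49). Col4a2 had 1032 and 496 counts (3.74 and 1.80 RPKM), a log2 ratio of 0.93 (0.78 to 1.09), just inside the 2-fold line. Both chains were higher in replicate 1, and their intervals did not overlap. Per exon length, Col4a1 exceeded Col4a2 by a ratio of 1.60 (1.48 to 1.73) in replicate 1 and 2.35 (2.11 to 2.61) in replicate 2, so the balance of the chains differed between libraries by more than counting error. The Col4a3 and Col4a4 chains, known from kidney glomeruli, had 1 count and 0 counts in replicate 1 and 0 counts each in replicate 2. The X-linked Col4a5, outside the rule, had 130 and 54 counts (1.13, 0.68 to 1.63), and Col4a6 had 5 and 0.

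Col4a1 (chr8:11198423-11312826, minus strand) and Col4a2 (chr8:11312805-11449287, plus strand) lie head to head on GRCm38, with annotated ends that overlap by 22 bases. Their promoter windows therefore share 78 bases, and the windows are shown because the pair is read in opposite directions from the same stretch. Capitals mark the same motifs on either strand. The Col4a1 window (chr8:11312777-11313076, minus strand, GRCm38.p6) holds 1 GC box and 1 CCAAT box, and the Col4a2 window (chr8:11312555-11312854, plus strand) holds 3 GC boxes and 1 CCAAT box.
Col4a1: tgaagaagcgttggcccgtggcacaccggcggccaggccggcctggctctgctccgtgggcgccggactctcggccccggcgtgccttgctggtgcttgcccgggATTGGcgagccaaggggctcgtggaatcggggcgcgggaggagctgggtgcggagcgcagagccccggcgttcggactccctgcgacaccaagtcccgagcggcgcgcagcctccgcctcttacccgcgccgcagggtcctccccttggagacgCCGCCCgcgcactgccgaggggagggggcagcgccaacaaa
Col4a2: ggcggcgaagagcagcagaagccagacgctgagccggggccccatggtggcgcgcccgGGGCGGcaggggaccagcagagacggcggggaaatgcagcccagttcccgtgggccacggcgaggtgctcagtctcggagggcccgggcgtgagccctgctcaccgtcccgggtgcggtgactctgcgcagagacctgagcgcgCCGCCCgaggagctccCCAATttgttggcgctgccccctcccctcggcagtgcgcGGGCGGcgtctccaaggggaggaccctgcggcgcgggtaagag
Each is read 5′ to 3′ on its own gene's strand, and 74.0% and 73.7% of the bases were G or C. RefSeq windows were found for 38 of the 53 members, 42 windows in all, with a median GC content of 59.8% against 52.7% over the 32851 windows of all genes. A GC box stood in 24 of the 42 windows (57.1%) and in 35.7% of all windows. A CCAAT box stood in 13 (31.0%, against 37.4%) and a TATA box in 5 (11.9%, against 13.6%). Members with alternative starts have more than 1 window, so windows are not independent.

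Fibrillar collagens, the main collagens of connective tissue, were below 1 RPKM in both libraries apart from Col5a1 and Col2a1. Col5a1, which regulates fibril diameter, had 1462 and 908 counts (4.13 and 2.57 RPKM), higher in replicate 1 by a log2 ratio of 0.56 (0.44 to 0.69). The other type V chains went in opposite directions. Col5a2 had 22 counts in replicate 1 and 126 in replicate 2, which was 6.01-fold higher in replicate 2 (log2 ratio -2.59, -3.36 to -1.98). Col5a3 had 165 and 67 counts and was 2.25-fold higher in replicate 1 (log2 ratio 1.17, 0.76 to 1.61). Col2a1, the cartilage collagen, had 742 and 681 counts with a log2 ratio of 0.00 (-0.15 to 0.15). Col11a1 (120 and 69 counts) and Col11a2 (53 and 26), its partners in cartilage fibrils, had log2 ratios of 0.67 and 0.88. Col27a1 had 73 and 110 counts.

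The type I and type III chains, which make the bulk of fibrils in skin and bone, were near the limit of detection. Col1a1 had 20 and 18 counts, Col1a2 had 6 and 1, and Col3a1 had 1 and 0. In the type I trimer Col1a1 chains outnumber Col1a2 chains, and the ratio per length was 6.31 (2.44 to 19.2) in replicate 1 and 34.1 (5.38 to 1420) in replicate 2, the latter resting on 1 count of Col1a2. Those intervals overlap. Col24a1 had 1 and 2 counts.

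The FACIT collagens attach to the surface of fibrils, and 7 of the 9 had a mean of at least 10 counts. Col9a2, a cartilage chain, was the highest with 731 and 570 counts (5.66 and 4.43 RPKM), and its partner Col9a3 had 273 and 170, while Col9a1 had 6 and 5. Per length this put Col9a2 beside Col4a1, while Col9a1, which joins it in the same trimer, had 0.0284 and 0.0237 RPKM. Col16a1 had 98 counts in replicate 1 and 27 in replicate 2, 3.26-fold higher in replicate 1 (log2 ratio 1.70, 1.11 to 2.41). Col20a1 had 146 and 53 counts, 2.50-fold higher in replicate 1 (1.32, 0.88 to 1.82). Col22a1, which is found at tissue junctions, had 152 and 113 counts (0.30, -0.06 to 0.67), and Col14a1 had 74 and 65 (0.06, -0.44 to 0.57). Col12a1 had 27 and 15 counts, and Col19a1 had 1 and 2.

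The transmembrane collagens carry a cytoplasmic part and a collagenous ectodomain, and the 3 of the 4 with a mean of at least 10 counts were at least 2-fold higher in replicate 1. Col17a1, a component of hemidesmosomes, had 948 and 434 counts (3.78 and 1.74 RPKM), a ratio of 2.0-fold that sat on the threshold (log2 ratio 1.00, 0.84 to 1.17). Col13a1, which is found at cell-matrix contacts, had 80 counts in replicate 1 and 5 in replicate 2. This was 12.6-fold (log2 ratio 3.65, 2.60 to 5.54), and its level moved from above 40.1% of autosomal protein-coding genes to above 26.6% of them. Col23a1 had 18 and 5 counts (1.56, 0.24 to 3.51). Both Col13a1 and Col23a1 were below 10 counts in replicate 2 and met the minimum mean through replicate 1 alone. Col25a1, a neuronal collagen, had 9 and 1.

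Type VI chains form beaded filaments around cells, from Col6a1, Col6a2 and a longer chain that can be Col6a3, Col6a4, Col6a5 or Col6a6. The common chains were scarce, at 16 and 8 counts for Col6a1 and 29 and 1 for Col6a2. Col6a2 had a log2 ratio of 3.84 (2.14 to 10.09) that rests on 1 count in replicate 2. The long chain with the most counts was Col6a5 in replicate 2, with 116 counts in replicate 1 and 324 in replicate 2, 3.02-fold higher in replicate 2 (log2 ratio -1.60, -1.92 to -1.29). Col6a4 had 145 and 191 counts (-0.52, -0.84 to -0.20). Col6a3, the usual long chain of most tissues, had 6 and 7 counts, and Col6a6 had 17 and 11. The per-length ratio of Col6a1 to Col6a2 was 1.05 (0.53 to 2.0) in replicate 1 and 15.2 (2.04 to 675) in replicate 2. Per exon length, Col6a4 (0.408 and 0.539 RPKM) and Col6a5 (0.295 and 0.828) thus stood above Col6a1 (0.0876 and 0.0439) in both libraries.

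Among the remaining collagens, Col26a1 had 589 and 289 counts, a log2 ratio of 0.90 (0.70 to 1.11). Col7a1, which makes the anchoring fibrils of skin, had 172 and 165 counts (-0.06, -0.38 to 0.25). Col28a1 had 13 and 2 counts. The short-chain network collagens were low, with 22 and 26 counts for Col8a2, 6 and 0 for Col8a1 and 5 and 6 for Col10a1, a marker of hypertrophic cartilage. In all, 12 collagens had a mean below 10 counts, and 4 of the 53 members had 0 counts in at least 1 library (Col3a1, Col4a3, Col4a4 and Col8a1), of which Col4a4 had 0 in both.

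Of the laminin α chains, which carry the receptor-binding domains, Lama5 was the main chain in both libraries. Lama5 (chr2:180176373-180225859, minus strand) had 17864 counts in replicate 1 (428 CPM, 422 to 435) and 15499 in replicate 2 (373 CPM, 367 to 379), a log2 ratio of 0.08 (0.05 to 0.11). It held 86.5% and 82.8% of the summed RPKM of the α chains. Lama1, the α chain of early embryonic basement membranes, had 1195 and 1672 counts (2.96 and 4.16 RPKM) and was 1.52-fold higher in replicate 2 (log2 ratio -0.61, -0.72 to -0.50). Its share of the α chains was 6.81% in replicate 1 and 10.5% in replicate 2. Lama3, an epithelial chain, had 878 and 1056 counts (-0.39, -0.52 to -0.26). Lama4, the chain of vessel walls and mesenchyme, went the other way with 456 and 129 counts, 3.23-fold higher in replicate 1 (1.69, 1.41 to 1.99). Lama2, the muscle chain, had 23 and 16 counts.

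The 3 laminin β chains were each higher in replicate 1. Lamb1, the β chain of most embryonic laminins, had 4523 and 2550 counts (10.9 and 6.19 RPKM), a log2 ratio of 0.70 (0.63 to 0.78). Lamb2, known from kidney and neuromuscular junctions, had 3402 and 2103 counts (13.4 and 8.32 RPKM), a log2 ratio of 0.57 (0.49 to 0.65). Lamb1 had more counts and Lamb2 the higher level per length, with 41.2% and 40.8% of the summed RPKM for Lamb1 and 50.5% and 54.9% for Lamb2. With the longest transcript as length, a setting added after the levels were seen, the mean ratio of Lamb1 to Lamb2 moved from 0.780 to 1.24, so their order depends on the length used. Lamb3, which pairs with Lama3 in epithelial anchoring, had 606 and 181 counts and was 3.07-fold higher in replicate 1 (1.62, 1.38 to 1.87).

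Of the γ chains, Lamc1 had the highest level per annotated exon length of the 53 chains in replicate 2. With the longest transcript as length, the mean level of Col18a1 moved from 91.0 to 114 RPKM and that of Lamc1 from 79.3 to 86.0. Which of them was the highest in replicate 2 depends on the length used. Lamc1, the γ chain of most laminins (chr1:153218922-153332786, minus strand), had 24270 counts in replicate 1 (582 CPM, 575 to 589) and 30336 in replicate 2 (729.8 CPM, 722 to 738). It was 1.36-fold higher in replicate 2 (log2 ratio -0.44, -0.47 to -0.42), against the direction of Lamb1 and Lamb2. Lamc3 had 29 and 4 counts (2.49, 1.23 to 4.70).

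**Figure D2:**
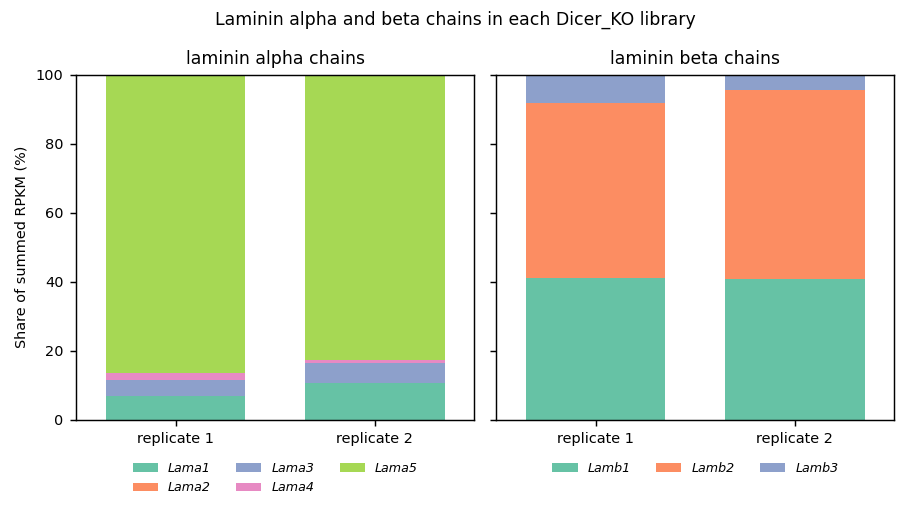
Share of each laminin chain in the summed RPKM of its family, in percent, for the α and β chains in each Dicer_KO library. Lama5 (86.5% and 82.8%) fills most of the α family in both libraries, while the β family is shared by Lamb1 and Lamb2.

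A laminin trimer holds an α, a β and a γ chain in equal number, so the chains were compared per length within each library. Lama5 stood at 0.535 of Lamc1 (0.524 to 0.545) in replicate 1 and at 0.371 (0.364 to 0.378) in replicate 2. Lama5 exceeded Lamb1 by a ratio of 3.44 (3.33 to 3.55) and 5.29 (5.08 to 5.52), and exceeded Lamb2 by 2.80 (2.70 to 2.91) and 3.94 (3.76 to 4.12). The order of levels was thus Lamc1, Lama5 and then the β chains in both libraries, with the order of Lamb2 and Lamb1 set by the length used. With the longest transcript as length, the mean ratio of Lama5 to Lamb1 moved from 4.37 to 2.55. Lama1 stood below the chains it joins. Its ratio to Lamc1 was 0.0421 (0.0397 to 0.0446) in replicate 1 and 0.0471 (0.0448 to 0.0495) in replicate 2, and its ratio to Lamb1 was 0.271 (0.254 to 0.289) and 0.672 (0.631 to 0.715). With the longest transcript as length, the mean of the latter moved from 0.471 to 0.279. Among the laminin ratios compared, that of Lama1 to Lamb1 moved most between libraries, as Lama1 was higher in replicate 2 and Lamb1 in replicate 1. RNA levels do not give the make-up of the secreted trimers.

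Between the libraries, 11 of the 41 members with a mean of at least 10 counts were at least 2-fold higher in replicate 1 (26.8%), where 14.2% of the 17788 genes at that level were. At least 2-fold higher in replicate 2 were 2 of the 41 (4.88%), against 7.14% of all genes. Collagens gave 8 and 2 of 30, and laminins gave 3 and 0 of 11. A difference of at least 4-fold in either direction was found for 4 members (9.76%), Col13a1, Col6a2 and Lamc3 higher in replicate 1 and Col5a2 higher in replicate 2, against 5.71% of all genes. Col13a1, Col6a2, Lamc3 and, among those beyond 2-fold, Col23a1 had fewer than 10 counts in replicate 2. They met the minimum mean only through replicate 1, and the same minimum was used for all genes. The median log2 ratio of the 41 members was 0.56, that of the collagens 0.56 and that of the laminins 0.38, where all genes had a median of 0.02. Over the members with a mean of at least 50 counts the median was 0.30, and 8 of them were beyond 2-fold. The median and share of all genes at that minimum were not taken. These 2 values therefore cannot be set against those of all genes above. The members' quartiles were 0.00 and 1.00, against -0.38 and 0.54 over all genes, and 31 of 41 members were above 0, against 51.3% of all genes. Of the 13 members beyond 2-fold Col17a1 had the highest mean count, and none of the 9 chains with a mean of at least 1000 counts was among them. The median size of the log2 ratio, taken without its sign, was 0.44 over those 9 chains and 0.31 over the 7401 genes at that level.

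**Figure D3:**
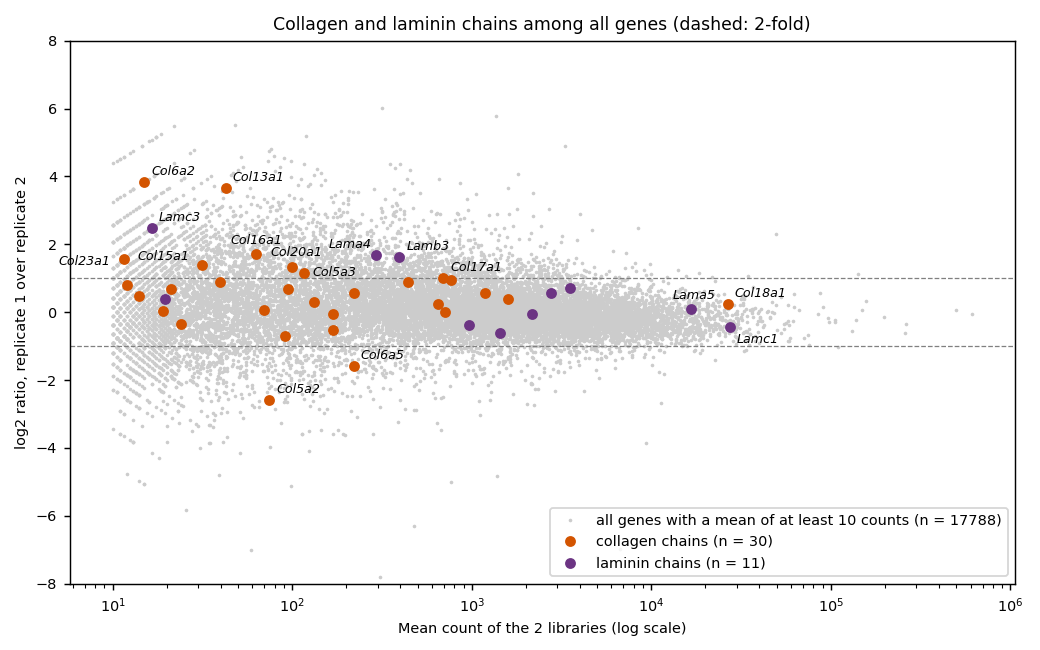
Log2 ratio of replicate 1 over replicate 2 against the mean count on a log scale for the 17788 genes that averaged 10 counts or more (grey), with the 30 collagen chains in orange, the 11 laminin chains in purple and dashed lines at 2-fold. Named are the 13 chains beyond 2-fold, of which 11 lie above the upper line, and the 3 most abundant chains, which lie between the lines.

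Among the collagen classes and the laminin α and β chains, the transmembrane collagens had the highest median log2 ratio, 1.56 over 3 chains, followed by the multiplexins with 0.80 over 2. The laminin β chains had a median of 0.70, the type IV chains 0.66 and the FACIT collagens 0.56. The type VI chains had 0.47, the anchoring fibril and other collagens 0.42 over 2 chains, the fibrillar collagens 0.30 over 8 chains, and the laminin α chains 0.08. The short-chain collagens were represented by Col8a2 alone, at -0.35. Classes of 2 or 3 chains rest on few genes, and their order was not tested. The median of the transmembrane class is the ratio of Col23a1, with 18 and 5 counts. In that class only 1 chain, Col17a1 (1.00), had at least 10 counts in both libraries. Lamb1 had 4523 and 2550 counts and Lamb2 had 3402 and 2103. Lamc1, their main γ partner, had 24270 and 30336, so these partners leaned to different libraries.

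**Figure D4:**
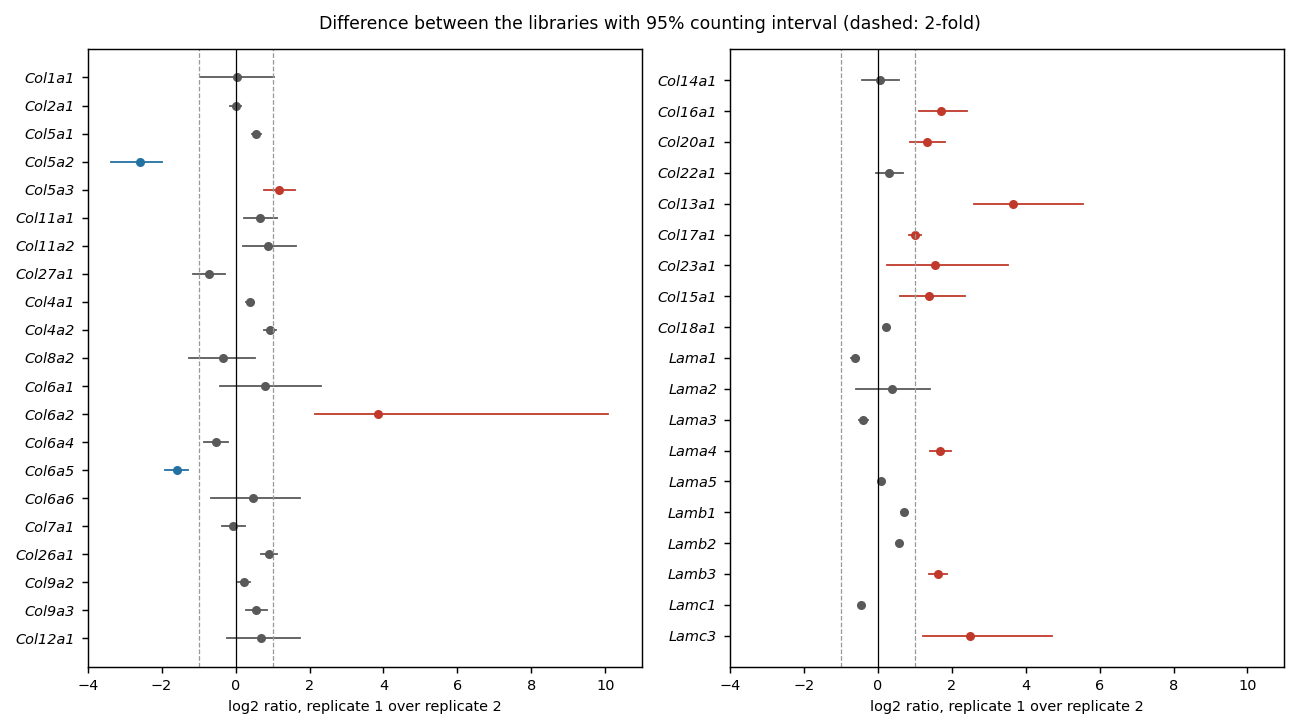
Log2 ratio of replicate 1 over replicate 2 with its 95% counting interval for the chains reported by name with a mean of at least 10 counts, red for at least 2-fold higher in replicate 1, blue for at least 2-fold higher in replicate 2 and grey for the rest, with dashed lines at 2-fold. The intervals are narrow for Col18a1 (0.20 to 0.25) and Lamc1 (-0.47 to -0.42) and wide for Col6a2 (2.14 to 10.09), which has 1 count in replicate 2.

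Of single chromosomes, only chromosome 15 was summarised, with a median log2 ratio of 0.59 over 683 genes, against 0.02 over all genes. Its members Col2a1 (0.00), Col14a1 (0.06) and Col22a1 (0.30) were below that median and within 2-fold. Leaving them out could not change the number of members beyond 2-fold, 13, since each lies within 2-fold. The scaling was not redone without chromosome 15. Scaling by total counts moved the median of all genes to 0.14 and added Col26a1 and Col4a2 to those at least 2-fold higher in replicate 1, for 13 in that direction and 2 in the other. Of the 41 members, 13 share exon bases with another annotated gene, none over more than 10% of the member's exon length.

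For the lists of related genes below, the shares over all genes are again 14.2% at least 2-fold higher in replicate 1 and 7.14% in replicate 2. The enzymes that modify and fold collagen chains were expressed in both libraries, with P4hb, a subunit of prolyl hydroxylase, at 18545 and 15062 counts. Of 17 with a mean of at least 10 counts, 1 was at least 2-fold higher in replicate 1 and 2 in replicate 2 (17.6% in all), with a median log2 ratio of 0.01. The gene higher in replicate 1 was Serpinh1, the collagen chaperone HSP47, with 4461 and 1237 counts (1.73, 1.64 to 1.82). Those higher in replicate 2 were P4ha3, a prolyl hydroxylase subunit, with 19 and 62 counts (-1.78, -2.65 to -1.07) and P3h4, a partner of lysyl hydroxylase, with 797 and 2038 (-1.48, -1.60 to -1.36).

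Genes for trimming of procollagen and cross-linking of fibrils had a median log2 ratio of 0.90. Of 12 with a mean of at least 10 counts, 6 were at least 2-fold higher in replicate 1, where 14.2% of all genes were, and 1 in replicate 2, where 7.14% were. Loxl2 and Loxl4, lysyl oxidases that cross-link collagen, had 451 and 95 counts (2.11, 1.80 to 2.46) and 467 and 80 counts (2.41, 2.08 to 2.78). Their relative Loxl1 had 88 and 25 counts. Pcolce, which enhances removal of the C-propeptide, had 4151 and 1680 counts (1.18, 1.10 to 1.27), and the proteinases Bmp1 and Tll1, which remove it, had 179 and 66 and 59 and 18 counts. Adamts3, which removes the N-propeptide, was higher in replicate 2 with 37 and 146 counts (-2.07, -2.66 to -1.57).

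The basement membrane partners of laminin and type IV collagen had 0 of 10 beyond 2-fold and a median of 0.00. Nid1, which bridges laminin and type IV collagen, had 29120 and 31881 counts (-0.25, -0.28 to -0.23). Agrn, a proteoglycan that binds laminin, had 26486 and 16273 (0.58, 0.55 to 0.61). Of the receptors, 11 had a mean of at least 10 counts, with 1 at least 2-fold higher in each library and a median of 0.21. The laminin receptor subunits Itga6 and Itgb1 had 13629 and 10028 and 11297 and 10467 counts. Itga1, a collagen receptor subunit, was higher in replicate 2 with 16 and 104 counts (-2.75, -3.68 to -2.06), and Itga7, a laminin receptor subunit, was higher in replicate 1 with 111 and 37 (1.44, 0.91 to 2.04). Of the 8 matrix proteases and inhibitors at that level, 4 were at least 2-fold higher in replicate 1, against 14.2% of all genes, with a median of 0.97. They were the gelatinase Mmp9 (114 and 27 counts), the membrane-type protease Mmp15 (299 and 133) and the inhibitors Timp2 (186 and 30) and Timp3 (3329 and 930).

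**Figure D5:**
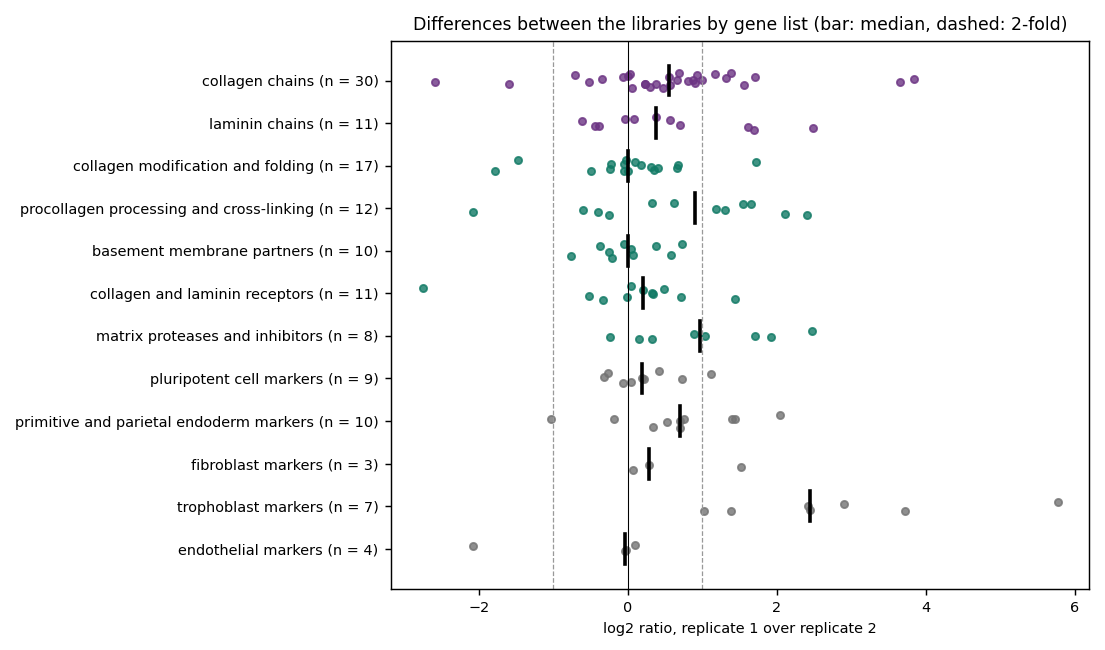
Log2 ratio of replicate 1 over replicate 2 for each gene that averaged 10 counts or more, by list, with a black bar at the median, dashed lines at 2-fold and vertical scatter for legibility. The collagen chains (median 0.56) sit to the right of the basement membrane partners (0.00), and the trophoblast markers lie farthest to the right (2.45).

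Markers of other cell types that mESC cultures can hold were measured beside these chains, and their counts stand against the same shares of all genes, 14.2% and 7.14%. Trophoblast markers were higher in replicate 1 by at least 2-fold in 7 of the 7 with a mean of at least 10 counts, with a median of 2.45 and a summed level of 533 CPM in replicate 1 and 91.0 CPM in replicate 2. They were Krt7 (2674 and 44 counts), Krt8 (8004 and 1370), Krt18 (7162 and 880), Hand1 (229 and 15), Elf5 (70 and 11), Eomes (334 and 151) and Tfap2c (3742 and 1311), while Cdx2, a defining factor of trophectoderm, had 6 counts and 1. Most of the summed level came from Krt8 (192 and 33.0 CPM), Krt18 (172 and 21.2 CPM) and Tfap2c (89.7 and 31.5 CPM). Whether these RNAs came from trophoblast cells was not tested. Primitive and parietal endoderm markers, of cells that secrete much laminin and type IV collagen, summed to 22.9 and 14.0 CPM. Of 10 with a mean of at least 10 counts, 3 were at least 2-fold higher in replicate 1, Dab2 (52 and 17 counts), Apoa1 (21 and 4) and Gata6 (16 and 5), and Cubn (25 and 48) was in replicate 2. Apoa1 and Gata6 had fewer than 10 counts in replicate 2 and met the minimum mean only through replicate 1. The same minimum was used for all genes. The counting interval of the Gata6 ratio reached down almost to no difference. The endoderm factors Gata4 and Sox17 had 586 and 318 and 14 and 10 counts, and Ttr was at 0 in both. Fibroblast markers had a mean of at least 10 counts for 3 of 9, with 100.3 and 82.4 CPM in sum, Postn at 0 in both and Dcn at 0 and 19. Fbln1 (3066 and 2692 counts) made up most of that sum, and Pdgfrb (285 and 91 counts) was at least 2-fold higher in replicate 1. Endothelial markers summed to 309.9 and 274 CPM, most of it from Pecam1 (12422 and 10636 counts), which mESCs also express, with Emcn at 0 in both. Of 4 endothelial markers at that level, Kdr (90 and 353 counts) was at least 2-fold higher in replicate 2. The part of the trophoblast and endoderm markers in the difference of any chain was not tested, and in bulk RNA more cells of a type and more RNA per cell cannot be told apart.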

How the data were processed

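PolyA RNA of 2 Dicer_KO mESC libraries, made by a reverse-stranded protocol, was sequenced. The authors deposited raw counts per Ensembl gene, whole numbers without normalization, which they made by alignment with STAR (2.4.2a) to mm10 and counting with featureCounts (1.4.5-p1), leaving out overlapping regions. Whether the counter used strand and how it treated reads with several alignments is not given in the sources used here. Symbols, positions and union exon lengths came from GENCODE M21 (release 21, GRCm38), promoter windows from RefSeq (GRCm38.p6). The paper counted reads on an earlier Ensembl gene set, so levels per length divide counts by exon lengths of another annotation release.

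CPM used the total counts. Ratios used TMM factors of edgeR (4.0.16, R 4.3.3) over all genes and a pseudocount of 1, for genes that averaged 10 counts or more. No test was run, since both libraries belong to 1 group and nothing in the labels tells whether their differences are biological or technical. Intervals (Wilson for CPM, Clopper-Pearson for ratios, 95%, scipy 1.17.1) cover counting error only. Alternatives were DESeq2 (1.42.0) size factors, total counts, other minimums, a pseudocount of 0.1, a 4-fold threshold, transcript length, leaving out chromosome 15 and leaving out each library. The steps were tested on simulated data. Chains with a mean of at least 1000 counts, beyond 2-fold, on chromosome 15 or in the trimers compared were described with values, and the rest with counts. List genes were named mainly where they were the highest or lowest of their list or beyond 2-fold, and a few others, such as Gata4, Sox17 and Itgb1, were chosen after their values were seen. The result of 1 member is not reported here by name, and it stays in the counts and medians. Members, lists and rules were chosen with earlier results of these data known.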

Additional observations from a re-analysis of the deposited data

How the results depend on the processing

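The number of members beyond 2-fold, 13, was 8 at a minimum mean of 50 counts and 4 at a 4-fold threshold, both of which admit fewer genes by construction. It was 15 with total counts, 19 with no minimum and 13 with DESeq2 size factors or a pseudocount of 0.1. The 13 calls were shared with those under size factors, total counts and the smaller pseudocount. Leaving out chromosome 15 also gave 13, which was fixed in advance because its members lie within 2-fold. The median log2 ratio of the members ranged from 0.30 at a minimum mean of 50 counts to 0.68 with total counts. The mean ratio of Lama5 to Lamb1, 4.37, was 2.55 with the longest transcript as length. Leaving out each library moved the summed CPM of collagens between 715 and 937, that of laminins between 1329.8 and 1339, and the ratio of Lama5 to Lamb1 between 3.44 and 5.29. Members with at least 10 counts numbered 42 in replicate 1 and 36 in replicate 2. Over 73 results, 172 alternatives other than leaving out a library were called the same in 153 cases and moved in 19. Counts of members were judged by a fixed fold limit, and levels and chain ratios by the SD of the libraries. Single-gene ratios were judged by their interval, and the members' median by the median size of those intervals. The ratio of Lamb1 to Lamb2 was called moved without such a limit. Reversals were sought only in ratios of at least 2-fold. These alternatives shift such ratios too little to turn their sign, so the 0 found says nothing of stability. A mean of 2 libraries always moves by less than its SD when a library is left out, so those alternatives say nothing of stability. Depth limits chains with few counts in a library, such as Col1a2, Col6a2, Lamc3, Col13a1 and Col23a1, whose ratios have wide intervals. No paired analysis was possible because the labels define a lone group, with nothing to pair it to.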
